A study of Mus musculus with 16 samples.

Results

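The genes Tph2, Slc5a7, Gpr50, Myh15, Kcnj14, Trdn and Otop1, better known from nerve, muscle and sensory cells than from fat, were examined in mouse epididymal fat, a visceral white fat depot. These 7 genes were chosen from the 27150 genes of the mRNA table because they were among the largest differences between mice on a high-fat diet (HFD) and mice on a normal diet and have known roles in nerve or muscle. The HFD against normal diet values are therefore a description of what was selected, without a test. All 7 passed the filter on low counts, which left 17535 genes. Among those 17535 genes, ordered by fitted log2 fold change, Tph2 had rank 3, Gpr50 rank 4, Myh15 rank 5, Slc5a7 rank 10, Kcnj14 rank 16, Trdn rank 21 and Otop1 rank 22. Otop1, the member nearest to the edge, had a log2 fold change of 4.60, and Serpinb1c, at rank 23 and not a member, had 4.52.

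All animals were male C57BL/6 mice, bought at 6 weeks of age and about 22 g. The first group received HFD with metformin, a biguanide used against type 2 diabetes (4 libraries), the second HFD with resveratrol, a plant polyphenol (4 libraries, of which 3 were used), the third HFD without a drug (4 libraries), and the fourth a normal diet (4 libraries). The HFD had 60% fat and was given for 8 weeks, after which the drugs were given for 6 weeks. The labels name epididymal fat and white adipose tissue as the source, while their protocol texts name retina and skeletal muscle. Summed adipocyte markers (12 genes) stood at 22222 to 42773 CPM (counts scaled to library size) in the 15 libraries used, and summed retina markers (10 genes) at 2.39 to 9.37 CPM.

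Library totals ran from 13350585 to 20531032 mRNA counts. The fourth resveratrol library had 12131 CPM of Crisp1, a secretory protein of the epididymis, and was left out of the main values. One count column of the HFD group and 1 of the metformin group carry a code that is in no sample title and appear here as HFD unmatched and metformin unmatched. The other HFD libraries share the first part of their code, and HFD unmatched has another. What that part stands for is not known here, so it cannot be told apart from other differences of HFD unmatched. Nothing in the labels states whether the libraries came from separate mice, so p-values measure only the spread between these libraries. In bulk tissue, fewer cells of a type and less RNA per cell cannot be told apart.

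As background, Tph2 encodes the rate-limiting enzyme of serotonin synthesis in neurons, whereas Tph1 serves that step in the gut. Slc5a7 encodes the high-affinity choline transporter with which cholinergic nerve endings take up choline for acetylcholine, and Gpr50 an orphan receptor related to the melatonin receptors that does not itself bind melatonin. Kcnj14 encodes an inward rectifier potassium channel, and Otop1 a proton channel of sour taste cells and of the inner ear that has also been studied in mouse fat during obesity. Trdn encodes triadin, which holds calsequestrin next to the ryanodine receptor in the junctional sarcoplasmic reticulum of muscle, and Myh15 a sarcomeric myosin heavy chain found in extraocular muscle.

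Of the 7 genes, 5 matched a RefSeq promoter (GRCm38.p6, from 250 bases before to 50 bases after the annotated start). The 3 printed here belong to the members with the highest HFD level per length, so that the region in front of each can be read beside its values. Capitals mark matches to the motifs searched on both strands, and positions are counted from the annotated start, which is position 0. The Tph2 promoter lies at chr10:115184973-115185272 on the minus strand, that of Slc5a7 at chr17:54298985-54299284 on the minus strand, and that of Gpr50 at chrX:71663417-71663716 on the plus strand.
Tph2: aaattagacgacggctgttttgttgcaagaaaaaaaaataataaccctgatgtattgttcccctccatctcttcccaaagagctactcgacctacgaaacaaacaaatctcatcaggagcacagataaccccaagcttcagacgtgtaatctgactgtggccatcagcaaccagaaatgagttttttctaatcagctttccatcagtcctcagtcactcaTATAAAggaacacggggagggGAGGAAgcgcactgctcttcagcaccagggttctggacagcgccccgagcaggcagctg
Slc5a7: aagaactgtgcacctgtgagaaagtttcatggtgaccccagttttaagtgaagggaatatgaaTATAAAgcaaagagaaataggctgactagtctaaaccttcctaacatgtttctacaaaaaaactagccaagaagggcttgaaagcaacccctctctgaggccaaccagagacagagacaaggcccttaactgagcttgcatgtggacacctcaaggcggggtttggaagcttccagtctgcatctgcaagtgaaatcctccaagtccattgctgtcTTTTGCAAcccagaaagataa
Gpr50: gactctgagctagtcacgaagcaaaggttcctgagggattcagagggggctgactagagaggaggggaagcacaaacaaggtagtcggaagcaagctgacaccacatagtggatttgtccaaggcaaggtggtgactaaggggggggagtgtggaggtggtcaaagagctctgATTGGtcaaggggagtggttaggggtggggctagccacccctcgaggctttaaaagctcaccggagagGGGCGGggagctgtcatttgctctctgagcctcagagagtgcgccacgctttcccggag

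The Tph2 promoter held a TATA box (TATAAA) beginning at position -30 and the letters GAGGAA, a PU.1 core, beginning at position -9. TATAAA is in 13.6% and GAGGAA in 28.3% of the 32851 promoters of the same length. The Slc5a7 promoter held TATAAA at position -187 and, on the reverse strand at position 29, a C/EBP-type match (TTGCNNAA, in 10.8% of promoters). The Gpr50 promoter held a reverse CCAAT box at position -77 (37.4% of promoters) and a GC box (GGGCGG, 35.7%) at position -9. Of the members not printed, the Otop1 promoter had GC boxes at position -11 and, reversed, at position 1, and the Myh15 promoter had a reversed TATAAA at position -237 and TTGCNNAA at position 4. No match overlapped another, and neither TGANTCA (7.81% of promoters) nor CACGTG (7.15%) was found in the 5 windows. No motif was found in more than 3 of the 5 promoters, and base composition differed among them, from 33.7% G and C in Myh15 to 71.7% in Otop1, against a median of 52.7% over all promoters.

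Levels per transcript length in the HFD group were highest for Slc5a7, at 31.4 ± 14.2 CPM per kb (SD, n = 4). Tph2 followed with 22.7 ± 15.9, Gpr50 with 17.9 ± 9.45, Kcnj14 with 8.75 ± 4.41, Otop1 with 4.29 ± 2.62, Trdn with 3.35 ± 1.64 and Myh15 with 1.97 ± 1.35 CPM per kb. Of the neighbours in this order, only Kcnj14 and Otop1 were farther apart than the larger of their SDs.

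**Figure D1:**
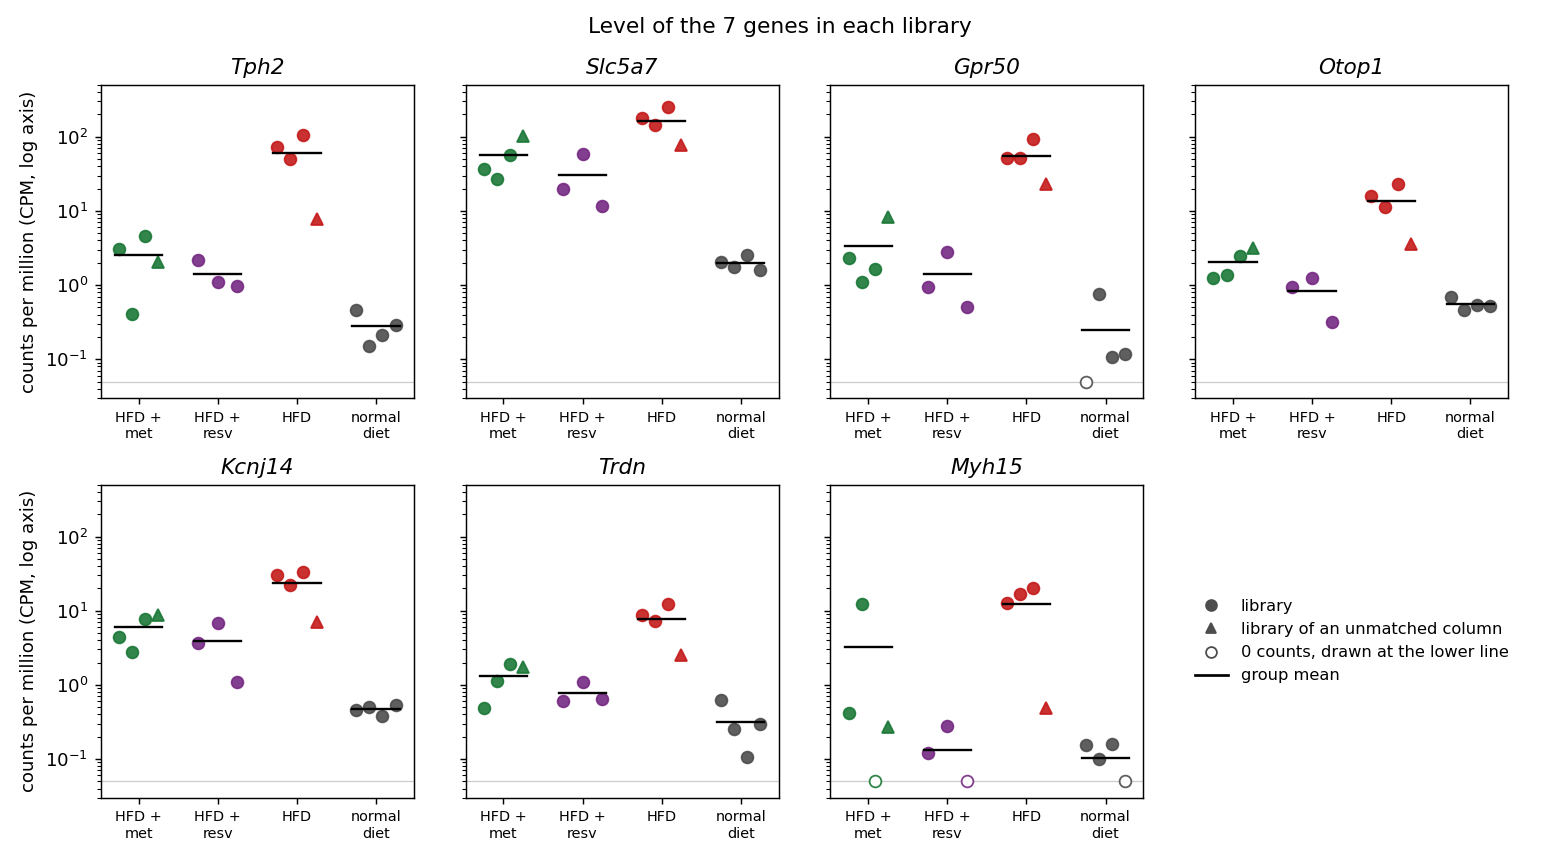
Level of each of the 7 genes in CPM (log axis) in the HFD with metformin, HFD with resveratrol, HFD and normal diet groups; points are libraries, triangles the libraries of unmatched columns, open circles libraries with 0 counts and bars group means. Every HFD library lies above every normal diet library in all 7 panels, and the triangle is the lowest HFD point in each.

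Tph2 (ENSMUSG00000006764, chromosome 10, 115078641 to 115185022) was close to silent on the normal diet and plainly present on HFD. It had 73.1, 50.1, 107 and 7.79 CPM in HFD 1, 2, 3 and HFD unmatched, against 0.462, 0.152, 0.215 and 0.294 CPM in normal diet 1 to 4. The normal diet values rest on 3 to 6 counts a library. The fitted log2 fold change was 7.75 (SE 0.94). Even the lowest HFD library, HFD unmatched, stood 27.8-fold above the normal diet mean, though the mean of the other HFD libraries was 9.86-fold above it.

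Slc5a7 (ENSMUSG00000023945, chromosome 17, 54273594 to 54299034) was the member with the most counts. It had 177, 142, 253 and 77.4 CPM in HFD 1, 2, 3 and HFD unmatched, against 2.08, 1.77, 2.52 and 1.59 CPM in normal diet 1 to 4, a log2 fold change of 6.35 (SE 0.66). The normal diet libraries agreed closely, with 27 to 47 counts each. HFD 1 to 3 averaged 2.47-fold above HFD unmatched, the smallest such gap among the 7 genes.

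Gpr50 (ENSMUSG00000056380, chromosome X, 71663667 to 71669257) had 51.6, 51.3, 92.8 and 22.9 CPM in HFD 1, 2, 3 and HFD unmatched, against 0, 0.760, 0.107 and 0.117 CPM in normal diet 1 to 4. Normal diet 2, with 15 counts, stood apart from the other normal diet libraries, which had 0 to 2 counts. The log2 fold change of 7.64 (SE 1.00) became 9.27 without normal diet 2.

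Kcnj14 (ENSMUSG00000058743, chromosome 7, 45816460 to 45824782) had 30.5, 22.4, 33.5 and 6.94 CPM in HFD 1, 2, 3 and HFD unmatched, against 0.462, 0.506, 0.375 and 0.529 CPM in normal diet 1 to 4. The normal diet libraries spanned a narrow range and the lowest HFD library was far above it. The log2 fold change was 5.62 (SE 0.67).

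Otop1 (ENSMUSG00000051596, chromosome 5, 38277404 to 38304217) had 15.9, 11.3, 23.2 and 3.56 CPM in HFD 1, 2, 3 and HFD unmatched, against 0.693, 0.456, 0.536 and 0.529 CPM in normal diet 1 to 4. The groups did not overlap, and HFD 1 to 3 again lay above HFD unmatched, by 4.71-fold on average. The log2 fold change was 4.60 (SE 0.60).

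Trdn (ENSMUSG00000019787, chromosome 10, 33080554 to 33476709) had 8.83, 7.23, 12.5 and 2.54 CPM in HFD 1, 2, 3 and HFD unmatched, against 0.616, 0.253, 0.107 and 0.294 CPM in normal diet 1 to 4. Its normal diet values came from 2 to 8 counts a library. The log2 fold change was 4.62 (SE 0.64).

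Myh15 (ENSMUSG00000092009, chromosome 16, 49057486 to 49199104) differed from the other members in being near its floor in HFD unmatched too. It had 12.5, 16.9, 20.0 and 0.483 CPM in HFD 1, 2, 3 and HFD unmatched, against 0.154, 0.101, 0.161 and 0 CPM in normal diet 1 to 4. HFD 1 to 3 averaged 34.1-fold above HFD unmatched, which itself was 4.64-fold above the normal diet mean. The log2 fold change of 6.83 had the largest SE of the 7 genes, 1.84.

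Every HFD library exceeded every normal diet library for 7 of 7 members, which the way they were chosen favours. Of all genes tested, 14.1% were without overlap in this direction, and 23.1% passed the test in either direction (edgeR quasi-likelihood, adjusted p below 0.05). With the libraries of these groups apart for every member, leaving out HFD unmatched or any other library could not reverse a fold change, and none reversed.

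With metformin added, all 7 members had lower means than on HFD alone. Tph2 and Gpr50 kept the smallest shares of the HFD mean and Slc5a7 the largest. Between them lay Otop1 (15.2%), Trdn (17.0%), Kcnj14 (25.5%) and Myh15 (26.0%). The comparisons of each drug with HFD and of HFD with the normal diet use the same HFD libraries, which also chose the members, so the drug folds are given without a test. Tph2 had 3.03, 0.411, 4.66 and 2.08 CPM in metformin 1, 2, 4 and metformin unmatched, a mean of 4.27% of the HFD mean (log2 fold change -4.54, SE 0.76). Gpr50 had 2.34, 1.12, 1.67 and 8.26 CPM in the same libraries, 6.12% of the HFD mean (-4.02, SE 0.80). Without the 2 unmatched columns the Gpr50 log2 fold change was -5.25. All metformin libraries lay below all HFD libraries for both genes.

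Slc5a7 had 36.9, 26.6, 57.1 and 104 CPM in metformin 1, 2, 4 and metformin unmatched, 34.5% of the HFD mean and 28.2-fold above the normal diet mean (log2 fold change against HFD -1.54, SE 0.52). Metformin unmatched exceeded the lowest HFD library, so the groups overlapped. Kcnj14 had 4.40, 2.76, 7.81 and 8.80 CPM, 25.5% of the HFD mean (-1.97, SE 0.55), and metformin 4 and metformin unmatched exceeded HFD unmatched. Otop1 had 1.24, 1.35, 2.43 and 3.17 CPM (-2.71, SE 0.54) and Trdn 0.481, 1.12, 1.93 and 1.75 CPM (-2.55, SE 0.57), both below every HFD library. Myh15 had 0.413, 12.3, 0 and 0.273 CPM, so that metformin 2 alone carried the group. Its log2 fold change of -1.94 (SE 1.39) became -5.80 without metformin 2, the library in which the summed spermatogenic cell markers (12 genes) reached 2280 CPM, against 4.58 to 27.5 CPM in the other metformin libraries. The part of those cells in the Myh15 value was not tested.

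With resveratrol added, every library used lay below every HFD library for all 7 members. Tph2 had 2.15, 1.10 and 0.958 CPM in resveratrol 1 to 3 (log2 fold change against HFD -5.39, SE 0.91), and Gpr50 had 0.955, 2.82 and 0.511 CPM (-5.26, SE 0.98). Slc5a7 had 19.8, 58.8 and 11.6 CPM, 18.5% of the HFD mean and 15.1-fold above the normal diet mean (-2.44, SE 0.60). Without resveratrol 2, the highest of the 3, the Slc5a7 log2 fold change was -3.37. Resveratrol 2 was the highest library of this group for 6 of the 7 members, all but Tph2.

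Kcnj14 had 3.70, 6.89 and 1.09 CPM in resveratrol 1 to 3 (log2 fold change against HFD -2.58, SE 0.64), Otop1 0.955, 1.24 and 0.319 CPM (-4.0, SE 0.65) and Trdn 0.597, 1.10 and 0.638 CPM (-3.31, SE 0.66). Myh15 had 0.119, 0.275 and 0 CPM, which is within the range of 0 to 0.161 CPM of the normal diet libraries but for resveratrol 2 (-6.51, SE 2.05). In the resveratrol library left out, Gpr50 stood at 7.05 CPM and Slc5a7 at 4.38 CPM, the first above and the second below the other 3 libraries.

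Counted over the members, all metformin libraries were below all HFD libraries for 4 of 7 (Tph2, Gpr50, Trdn and Otop1), where 8.74% of all genes tested did so. For resveratrol it was 7 of 7, where 12.4% of all genes did so. The selection of genes high in the shared HFD libraries favours this direction, so these counts say nothing further about the drugs. Against the normal diet, all metformin libraries were higher for 4 of 7 members (Slc5a7, Gpr50, Kcnj14 and Otop1; 3.78% of all genes) and all resveratrol libraries for 3 of 7 (Tph2, Slc5a7 and Kcnj14; 6.48% of all genes). These counts share the normal diet libraries that chose the members. Group means in metformin stood between 3.70-fold (Otop1) and 31.1-fold (Myh15, through metformin 2) above the normal diet means, and in resveratrol between 1.27-fold (Myh15) and 15.1-fold (Slc5a7).

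Metformin against resveratrol compares groups that played no part in the choice of members. Its filter and spread estimate still drew on the HFD and normal diet libraries, which were fitted together with them. All 7 estimates were above 0 and none passed the test. The log2 fold changes were 0.85 for Tph2 (95% interval -0.71 to 2.42), 0.90 for Slc5a7 (-0.20 to 2.00), 1.24 for Gpr50 (-0.44 to 2.92), 0.61 for Kcnj14 (-0.55 to 1.78) and 0.76 for Trdn (-0.44 to 1.96). Otop1 had 1.29 (0.14 to 2.44) and Myh15 4.57 (0.80 to 8.34), the second through metformin 2, without which it was 0.73. These intervals assume a normal distribution of the estimate and are not adjusted for the number of genes. The lowest adjusted p, edgeR quasi-likelihood over 17535 genes, was 0.709 for Myh15, and the highest 0.803 for Kcnj14. Unadjusted p (edgeR quasi-likelihood) was below 0.05 for 2 of the 7, 0.0337 for Myh15 and 0.0473 for Otop1, and DESeq2 called none of the 7 either. Outside metformin 2, Myh15 had 0 to 6 counts a drug library. It passed the filter only with the help of HFD 1 to 3, which chose it, so its p is no independent support. Over all genes 0.0114% passed, which is the 2 genes Ces5a and Pate2, named after their values were seen, and the median log2 fold change was 0.02. Summed epididymis principal cell markers (9 genes) were 26.0 to 53.3 CPM in metformin and 0.297 to 7.43 CPM in resveratrol libraries. They were 0.148 to 0.198 CPM in HFD and 0 to 38.2 CPM in normal diet libraries. The part of those cells in any comparison was not tested. Over the alternatives run, the adjusted p of the members lay between 0.312 and 1, and no call was gained.

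The members did not all vary together among the 7 drug-treated libraries, which played no part in choosing them. Over 21 pairs, the median Pearson r of log2 CPM was 0.518, from -0.671 (Tph2 with Myh15) to 0.939 (Slc5a7 with Kcnj14). Of these, 4 pairs passed an exact two-sided permutation test after adjustment over the 21 pairs. How often other gene pairs would pass over these libraries was not measured, so the 4 pairs have no background share beside them. Slc5a7 with Kcnj14 had r = 0.939 (adjusted p = 0.0313 by the exact permutation test) and Spearman's rho of 0.929 (adjusted exact permutation p = 0.0708). Slc5a7 with Gpr50 had r = 0.937 (adjusted exact p = 0.0313) and rho of 0.964 (adjusted exact p = 0.0583). Slc5a7 with Otop1 had r = 0.910 (adjusted exact p = 0.0347) and rho of 0.821 (adjusted exact p = 0.143), and Kcnj14 with Otop1 r = 0.907 (adjusted exact p = 0.0365) and rho of 0.786 (adjusted exact p = 0.168). No pair passed by Spearman's rho.

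Without the 2 libraries farthest from the median of the first gene of each pair, r was 0.882 for Slc5a7 with Kcnj14, 0.818 for Slc5a7 with Gpr50, 0.654 for Slc5a7 with Otop1 and 0.594 for Kcnj14 with Otop1. Among pairs that did not pass, Gpr50 with Otop1 went from 0.808 to 0.175 in this way, and Trdn with Otop1 from 0.748 to 0.970. With 1 drug library left out, between 0 and 3 pairs passed, and 0 without metformin 1, metformin unmatched or any 1 of resveratrol 1 to 3. The 4 calls were therefore not stable to leaving out single libraries, although a test on 6 libraries also passes less easily. Tph2 had r of at most 0.548 with any other member, and Myh15 at most 0.158. The Myh15 values rest on metformin 2, with 209 counts against 0 to 6 in each other drug library. Without the 2 libraries farthest from the median of the first gene, r of Myh15 was 0.648 with Tph2, 0.858 with Kcnj14, 0.789 with Otop1 and 0.240 with Trdn. It was -0.390 with Slc5a7 and -0.290 with Gpr50. How Myh15 varied with the other members is therefore not settled by these libraries. Over all 15 libraries, r ran from 0.632 to 0.976, which includes the group differences that chose the members. After each library was centred on its group mean, r over the 15 libraries was highest for Kcnj14 with Otop1 (0.928) and Slc5a7 with Kcnj14 (0.886) and lowest for Tph2 with Myh15 (0.0103). These centred values are given as a description, since the libraries share their normalization and HFD unmatched was low for every member.

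**Figure D2:**
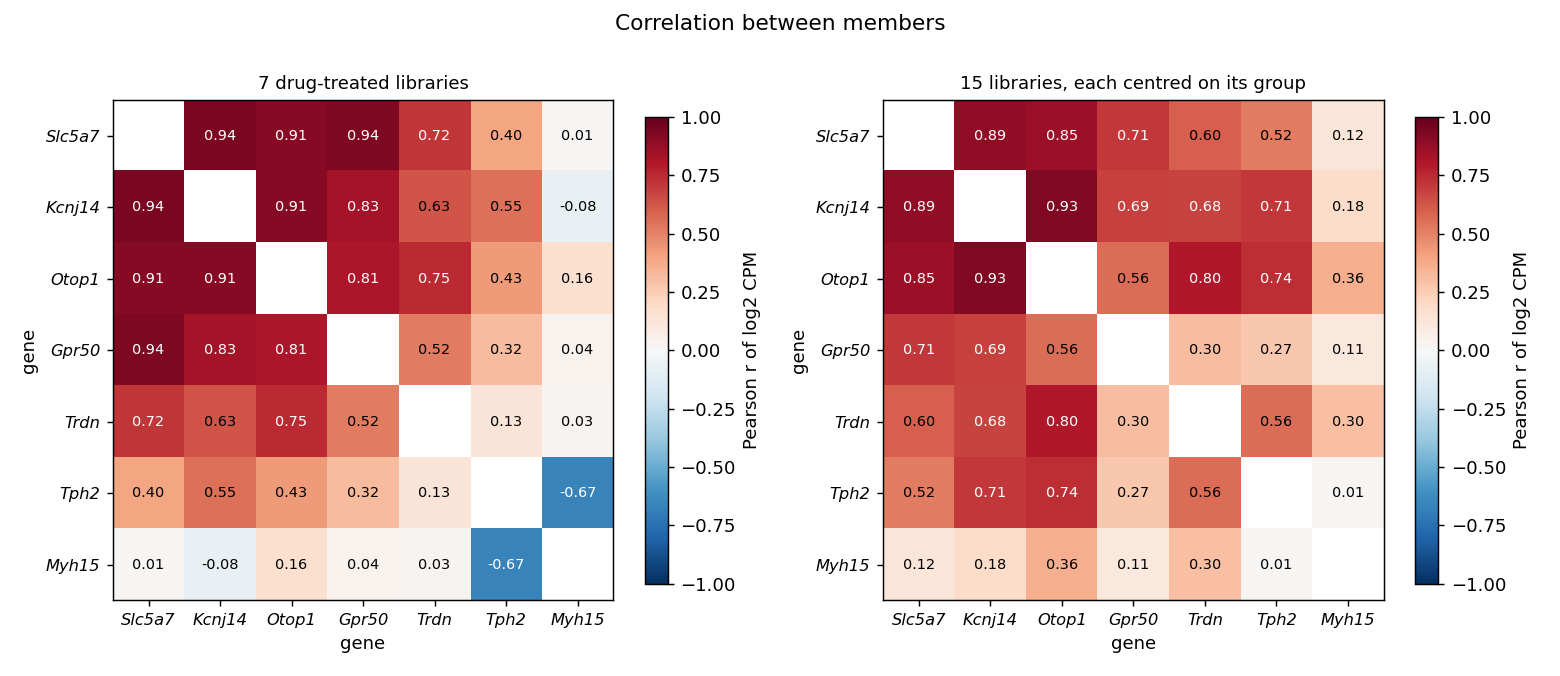
Pearson r of log2 CPM between members, over the 7 drug-treated libraries (left) and over 15 libraries each centred on its group mean (right); rows and columns are genes and colour runs from -1 to 1. At left, r among Slc5a7, Kcnj14, Otop1 and Gpr50 runs from 0.808 to 0.939, though Gpr50 with Kcnj14 and Gpr50 with Otop1 did not pass the test. Myh15 lies between -0.671 and 0.158, values that rest on metformin 2.

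By transcript, the extra HFD counts of Trdn were not spread evenly over the gene. Of its 7 annotated transcripts, the full-length ENSMUST00000095762 (4514 bases, spanning 33083483 to 33476709 on chromosome 10) had 6, 17, 31 and 23 counts in metformin 1, 2, 4 and metformin unmatched. It had 18, 14, 25 and 14 counts in HFD 1, 2, 3 and HFD unmatched, and 7, 0, 1 and 5 in normal diet 1 to 4. The metformin and HFD libraries overlapped, at 1.06 ± 0.49 CPM and 0.946 ± 0.254 CPM (SD, n = 4 each).

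The other 6 Trdn transcripts together had 1, 2, 7 and 9 counts in metformin 1, 2, 4 and metformin unmatched. In resveratrol 1 to 3 they had 10, 5 and 5 counts, where full length had 0, 11 and 5. They had 156, 127, 214 and 28 counts in HFD 1, 2, 3 and HFD unmatched, and 1, 5, 1 and 0 in normal diet 1 to 4. This fraction did not overlap between HFD (6.82 ± 3.94 CPM) and either metformin (0.258 ± 0.20 CPM) or normal diet libraries (0.0960 ± 0.110 CPM). Full length took 80.2% of Trdn counts in the metformin group (95% Wilson interval 71.1 to 86.9%), 44.4% in resveratrol (29.5 to 60.4%; 25.0% without resveratrol 2, chosen after the data were seen), 11.9% in HFD (9.55 to 14.8%) and 65.0% on the normal diet (43.3 to 81.9%). Intervals cover counting error only.

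In the HFD group, ENSMUST00000219982, a 4149-base transcript from 33080554 to 33196317, held 280 of 596 Trdn counts. ENSMUST00000219000, whose 1665 bases fill its whole span from 33198705 to 33200369, held 182. Both lie in the part of the gene with the lower coordinates. At its other end, the lncRNA NONMMUT005206.2 (33474572 to 33476644), which lies within the span of the full-length transcript, had 73, 57, 82 and 2 counts in HFD 1, 2, 3 and HFD unmatched, against 10, 4, 0 and 2 in normal diet 1 to 4. How reads shared between that lncRNA and full-length Trdn were divided is not given in the sources used here, nor is the use of strand, so the full-length counts may miss reads of this stretch.

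The counts of Otop1 were assigned to different transcripts in different libraries. ENSMUST00000114099 (3141 bases) had 303, 209, 432 and 0 counts in HFD 1, 2, 3 and HFD unmatched, 91.1% of the HFD counts of the gene (95% Wilson interval 89.2 to 92.7%). It had 2 counts in the metformin group, both in metformin unmatched, and 0 in the resveratrol and normal diet groups. This transcript averaged 12.2 CPM in HFD, and its fold over the normal diet depends on how the reads of the gene were divided. ENSMUST00000185357 (3151 bases) carried the other counts, including all 59 of HFD unmatched. The transcripts share their start and differ by 10 bases in length, and their sequences were not compared here, so the division of reads between them is uncertain. The sum over both is not affected by it.

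Tph2, Slc5a7 and Myh15 each had 1 transcript in the table. Gpr50 had 2, of which ENSMUST00000070449 held 99.8% of HFD counts, and Kcnj14 had 2, of which ENSMUST00000071937 held 99.8%.

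**Figure D3:**
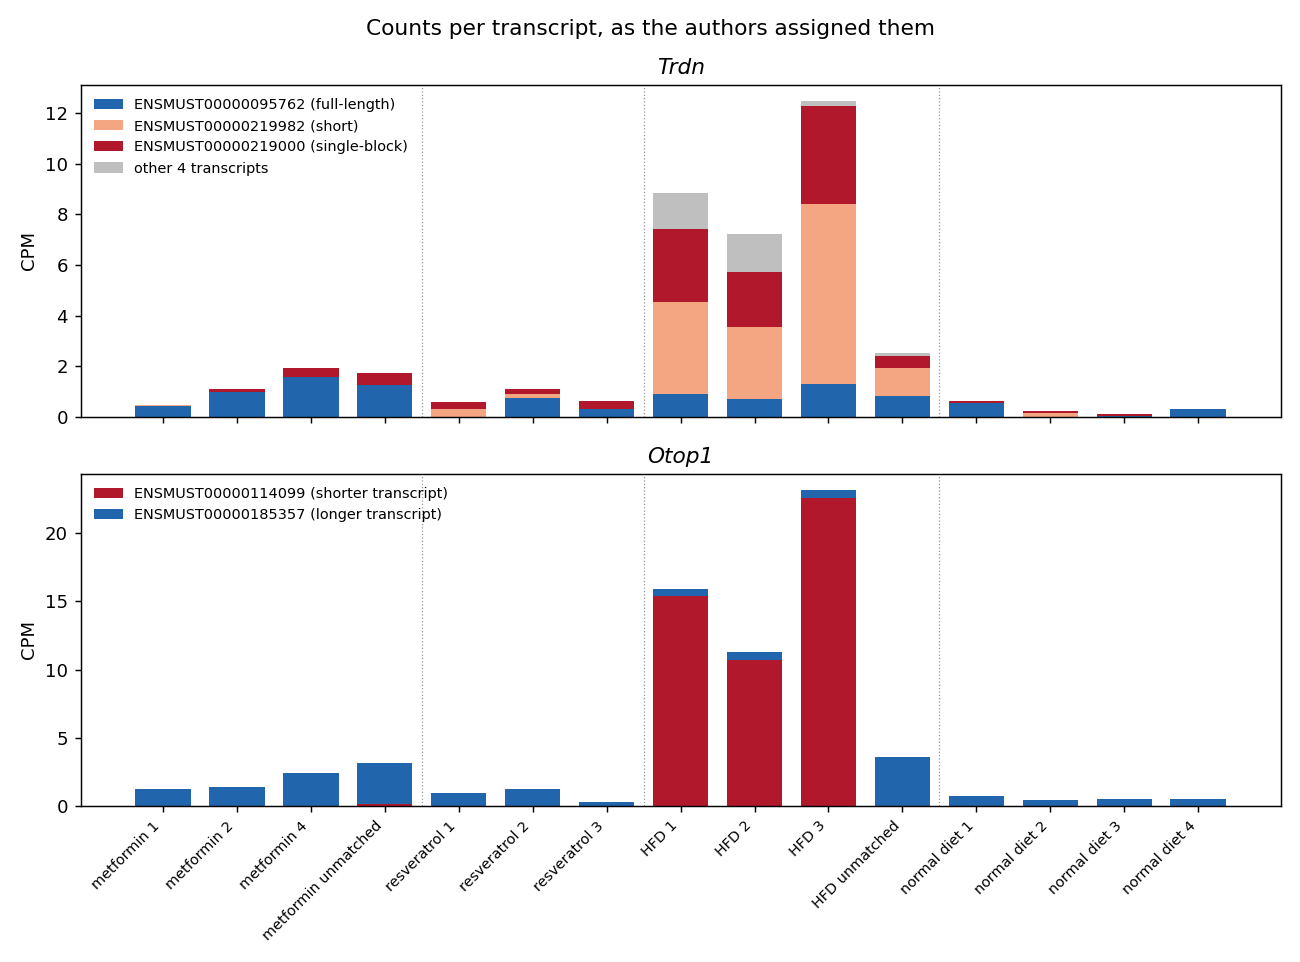
CPM of Trdn (top) and Otop1 (bottom) in each library, stacked by transcript as the authors assigned the counts, with libraries ordered by group and dotted lines between groups. The Trdn bars of HFD 1 to 3 consist mainly of transcripts other than full length, and the shorter Otop1 transcript fills the bars of HFD 1 to 3 but not of HFD unmatched.

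Other genes of the members' pathways were read from lists by function. Of 16 tested genes of serotonin synthesis, transport and breakdown, 3 rose and 3 fell in HFD against the normal diet (edgeR, adjusted p below 0.05), with a median log2 fold change of -0.21, where the median over all genes tested was -0.04 and 23.1% of them were called. Tph1, Ddc and Slc6a4, named for their place beside Tph2 after their values were seen, did not pass. Tph1, the form of the enzyme used outside neurons, stood at 0.422 ± 0.224 CPM in HFD and 0.542 ± 0.264 CPM on the normal diet (SD, n = 4 each), and Ddc, which makes serotonin from the product of Tph2, at 0.245 ± 0.136 and 4.09 ± 6.90 CPM. Their adjusted p was 0.694 for Tph1 and 0.0866 for Ddc (edgeR).

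The 3 genes that rose in that list were Maoa, which breaks serotonin down (88.1 ± 25.7 CPM in HFD, 38.6 ± 7.05 CPM on the normal diet; log2 1.19, SE 0.22, adjusted p = 0.00315, edgeR), Pcbd1, which recycles the cofactor of Tph2 (log2 1.32, SE 0.27), and the vesicle transporter Slc18a1 (log2 1.70, SE 0.47), whose call was lost without normal diet 1 or 4, HFD 1 or HFD 3. The other monoamine oxidase gene, Maob (log2 -0.44, adjusted p = 0.0360, edgeR), and Pts, of cofactor synthesis (log2 -0.64, adjusted p = 0.0432, edgeR), fell. Both are named after their values were seen. Both calls were lost with all 16 libraries, and when any 1 of HFD 1 to 3 or of normal diet 1, 2 or 4 was left out, and that of Maob also without normal diet 3. Aldh2, an aldehyde dehydrogenase of the step after monoamine oxidase, fell (356 ± 64.3 and 695 ± 42.6 CPM; log2 -0.96, SE 0.14). The serotonin transporter Slc6a4 had 1.51 ± 0.91 CPM in HFD and 3.15 ± 1.06 CPM on the normal diet (adjusted p = 0.168, edgeR). The 4 tested serotonin receptor genes had adjusted p between 0.0669 (Htr2b, log2 2.51) and 0.677 (Htr2a, log2 -0.13) in HFD against the normal diet (edgeR). Htr2b fell in metformin against HFD (0.286 ± 0.223 CPM in metformin, 4.25 ± 2.68 CPM in HFD; log2 -3.84, SE 0.99, adjusted p = 0.0286, edgeR), where 13.9% of all genes tested passed, a call lost without metformin 2, metformin unmatched or any 1 of HFD 1 to 3.

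Of 17 tested genes of choline transport and acetylcholine synthesis and breakdown, 1 rose and 3 fell in HFD against the normal diet, with a median of -0.14, a share called close to the 23.1% of all genes. The choline transporter-like gene Slc44a3 fell (14.99 ± 5.10 CPM in HFD, 36.2 ± 4.96 CPM on the normal diet; log2 -1.27, SE 0.20, adjusted p = 0.00102, edgeR), as did Chdh, which oxidises choline towards betaine (70.9 ± 10.6 and 144.8 ± 49.1 CPM; log2 -1.03), and Slc44a4, which had 0.0256 ± 0.0513 and 7.70 ± 11.7 CPM. The organic cation transporter Slc22a2 rose (2.71 ± 0.71 and 0.850 ± 0.201 CPM; log2 1.66). In metformin against HFD, 3 of the 17 rose (Slc44a3, Slc44a4 and Chdh), and in resveratrol against HFD 1 did (Slc44a3; 4.17% of all genes tested passed there). With all 16 libraries, Slc44a3 no longer passed in HFD against the normal diet (adjusted p = 0.0794, edgeR) or in metformin against HFD (0.120). The metformin calls of Slc44a4 and Chdh were lost when any 1 of HFD 1 to 3 was left out, and the resveratrol call of Slc44a3 when any 1 of HFD 1 to 3 or of the resveratrol libraries was left out. Normal diet 2 and 3 metformin libraries also had the high summed ciliated epithelium markers given below. Of 6 tested acetylcholine receptor genes, Chrm3 (log2 -1.46) and Chrnb2 (-0.83) fell in HFD against the normal diet, the Chrnb2 call being lost without normal diet 1, 2 or 3, HFD 1, HFD 2 or HFD unmatched.

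Of 20 tested genes of the junctional sarcoplasmic reticulum and calcium release, the setting of Trdn in muscle, 5 rose and 1 fell in HFD against the normal diet, while the median was -0.17 and 23.1% of all genes were called. Those that rose included the ryanodine receptor Ryr2 (27.2 ± 10.1 CPM in HFD, 4.82 ± 3.47 CPM on the normal diet; log2 2.49, SE 0.80, adjusted p = 0.0392, edgeR), Srl (12.8 ± 3.31 and 4.07 ± 0.32 CPM; log2 1.65), calsequestrin Casq1 (3.1 ± 0.67 and 1.08 ± 0.58 CPM; log2 1.53) and the junction protein Jph1 (24.0 ± 3.18 and 10.6 ± 0.98 CPM; log2 1.18), besides 1 further gene. The call of Ryr2 was lost without normal diet 1, 3 or 4 or any 1 of HFD 1 to 3, and that of Casq1 without normal diet 2, 3 or 4 or any 1 of HFD 1 to 3. Of the 7 tested myosin heavy chains other than Myh15, only the smooth muscle gene Myh11 passed. It fell (log2 -1.64), and the call was lost without normal diet 2 or 3 or any 1 of HFD 1 to 3.

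Of 5 tested inward rectifier genes other than Kcnj14, Kcnj2 rose and Kcnj8 fell in HFD against the normal diet. Kcnj2 had 10.2 ± 1.04 CPM in metformin (n = 4), 10.4 ± 2.55 CPM in resveratrol (n = 3), 28.8 ± 11.42 CPM in HFD (n = 4) and 4.99 ± 1.34 CPM on the normal diet (n = 4). It rose in HFD against the normal diet (log2 2.52, SE 0.31, adjusted p = 0.000441, edgeR) and fell in metformin (-1.49) and in resveratrol (-1.46) against HFD, the metformin call being lost with all 16 libraries (adjusted p = 0.0699, edgeR) and the resveratrol call when any 1 of HFD 1 to 3 or of the resveratrol libraries was left out. The Kcnj8 call in HFD against the normal diet was lost when any 1 of the normal diet libraries or of HFD 1 to 3 was left out. In metformin against HFD, 1 of the 5 rose (Kcnj15) and 1 fell (Kcnj2), where 13.9% of all genes tested passed. In resveratrol against HFD, 1 rose (Kcnj8) and 1 fell (Kcnj2), where 4.17% passed. The metformin call of Kcnj15 was lost under 11 of 14 alternatives, and the resveratrol call of Kcnj8 under 9 of 13. Of 3 tested proton or acid-sensing channel genes, the voltage-gated proton channel Hvcn1 rose (40.0 ± 11.7 CPM in HFD, 16.6 ± 5.35 CPM on the normal diet; log2 1.26). Nqo2, a quinone reductase that also binds melatonin and the 1 tested gene of the melatonin list, rose (log2 1.04, SE 0.13). The other 3 melatonin genes in the table did not pass the filter on low counts.

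**Figure D4:**
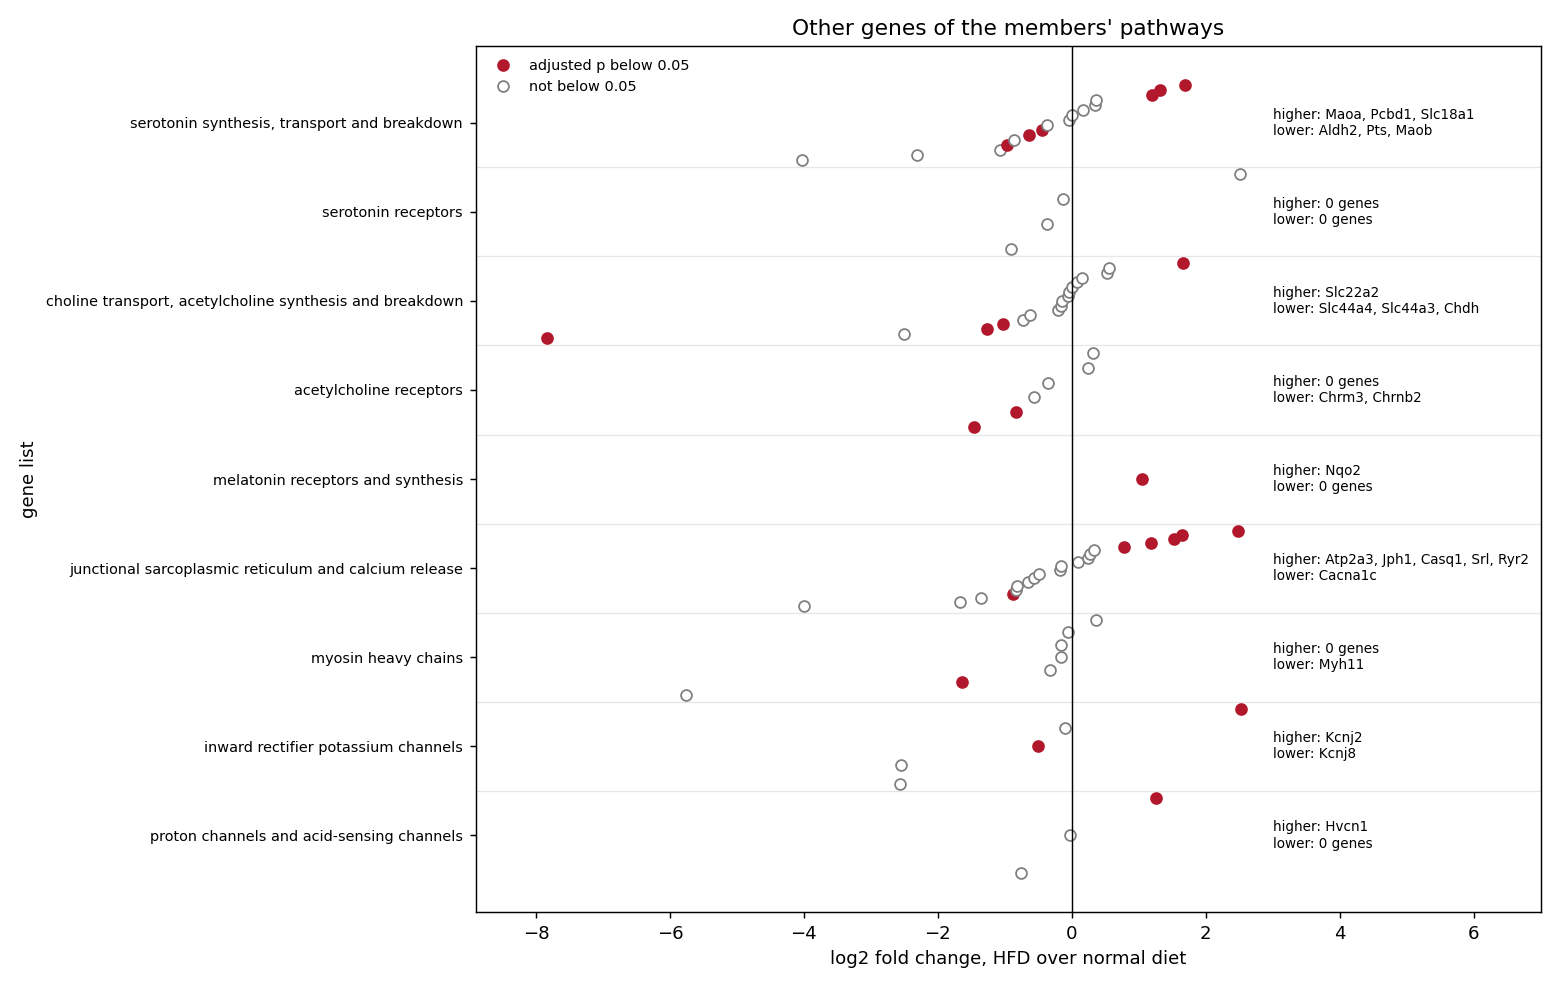
Log2 fold change of HFD over normal diet for the tested genes of 9 pathway lists, members left out; each circle is a gene and filled circles passed the test. The lists hold genes in both directions, with Kcnj2 and Ryr2 the highest filled points and Slc44a4 the lowest.

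Of the 23 list genes called in HFD against the normal diet, 9 kept the call under every alternative run (Maoa, Pcbd1, Aldh2, Chdh, Nqo2, Jph1, Srl, Kcnj2 and Hvcn1). Of the 8 list calls in metformin against HFD and the 4 in resveratrol against HFD, 0 did. These alternatives were read for single list genes after the data had been seen. In a fit of only the resveratrol and HFD libraries 1 gene of all tested was called.

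Marker lists of other cell types were summed beside the members. Neuron markers (14 of 15 in the table) summed to 11.5 to 22.8 CPM in HFD and 13.4 to 18.7 CPM in normal diet libraries. The neuronal genes Slc18a3, Th, Dbh and Elavl4 had 0 counts in all 4 HFD libraries, which allows up to 0.040 CPM over the group. Tubb3, Elavl3 and Nefl were higher in HFD, at 1.06, 0.807 and 0.743 CPM over the HFD group, against 0.431, 0.208 and 0.253 CPM over the normal diet group. Snap25 (0.231 CPM in HFD, 0.402 CPM on the normal diet) and Rbfox3 (0.154 and 1.41 CPM, with 92 of the 95 normal diet counts in 1 library) were lower, and none of these differences was tested here. Skeletal muscle markers (12 genes) summed to 63.4 to 135 CPM in HFD and 66.6 to 159 CPM in normal diet libraries, and Ckm had 3 counts in the HFD group and 168 in the normal diet group, 167 of them in 1 library. Enterochromaffin markers (6 genes) reached 1.70 CPM in HFD and 2.00 CPM on the normal diet.

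Macrophage markers were highest in HFD 1 to 3, the libraries in which the members were highest. Their sum (12 genes) was 1195 to 1618 CPM in metformin, 1437 to 1525 CPM in resveratrol, 3596 to 3972 CPM in HFD 1 to 3, 1741 CPM in HFD unmatched and 1456 to 2156 CPM in normal diet libraries. The sum of lipid-associated macrophage markers (13 genes) was 9959 CPM in HFD unmatched and 12694 to 15563 CPM in HFD 1 to 3. It was 5878 to 10360 CPM in metformin, 7841 to 9989 CPM in resveratrol and 7310 to 9650 CPM in normal diet libraries. This list shares Lpl with the adipocyte list. Fibroblast and preadipocyte markers (10 genes) were also highest in HFD 1 to 3, at 2777 to 4775 CPM in metformin, 2824 to 4266 CPM in resveratrol, 6445 to 6489 CPM in HFD 1 to 3, 3620 CPM in HFD unmatched and 2717 to 5369 CPM in normal diet libraries. Adipocyte markers overlapped between HFD (30906 to 38987 CPM) and normal diet libraries (29269 to 42161 CPM). Mesothelial markers (8 genes) were 424 CPM in HFD unmatched and 33.6 to 93.7 CPM in HFD 1 to 3. Motile ciliated epithelium markers (12 genes) were highest in metformin 2 (1227 CPM), normal diet 2 (953 CPM), metformin unmatched (697 CPM), resveratrol 2 (599 CPM) and metformin 4 (465 CPM). The part of any of these cells in the members' levels was not tested.

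The genes whose pattern over the 15 libraries was most like the members' mean z-score were Gm5522 (r = 0.983), Insig1, an endoplasmic reticulum protein of sterol sensing (0.976), Ubd, a ubiquitin-like protein (0.975), Sipa1l1 (0.973) and Cdca7l (0.963). Insig1 averaged 211.5 ± 59.2 CPM in metformin (SD, n = 4), 182 ± 50.4 CPM in resveratrol (n = 3), 519 ± 203 CPM in HFD (n = 4) and 95.6 ± 6.75 CPM on the normal diet (n = 4), and Ubd 3.08 ± 1.31, 1.94 ± 1.01, 42.1 ± 25.3 and 0.740 ± 0.118 CPM in the same order. By single member, the nearest were Fam234a and Ubd for Tph2, Lipf (gastric lipase) and Tfpi2 for Slc5a7, Lamb3 and Sipa1l1 for Gpr50, and Rab3il1 and Rad54l for Myh15. For Kcnj14 they were Jpt2 and Gpc1, for Trdn Cyb5b, and for Otop1 Ubd and Aagab. These r lay between 0.949 and 0.976 over 15 libraries and between 0.594 and 0.939 over the 7 drug libraries. They were picked as the highest among all genes and carry no test.

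Within 60 kb, 11 neighbours of 4 members (Tph2, Myh15, Kcnj14 and Otop1) were tested in HFD against the normal diet, and 3 passed (edgeR, adjusted p below 0.05; 23.1% of all genes did). Grwd1, 441 bp from Kcnj14, was higher (log2 0.48, SE 0.10, adjusted p = 0.00531), and so was C330027C09Rik near Myh15 (log2 1.35, SE 0.46, adjusted p = 0.0490), whose call was lost without normal diet 1, 2 or 4 or any 1 of HFD 1 to 3. Tbc1d15 near Tph2 was lower (log2 -0.36, SE 0.09, adjusted p = 0.0147).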

How the data were processed

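RNA of 16 epididymal fat libraries was measured by sequencing, prepared with a TruSeq kit per the labels' protocols. Reads were handled with fastp and HISAT2 on GRCm38, per the submitters' processing notes. The counting tool, annotation release and use of strand are not stated there or in the labels. The authors deposited raw read counts per transcript for mRNAs and for lncRNAs. Values of FPKM, deposited beside the lncRNA counts, served only to check which count column belongs to which library: totals differed by at most 0.0418% within a library and at least 0.489% between libraries, in 14 libraries. There were 18 further columns of values per sample that were not used.

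The 91879 mRNA transcripts were summed to 27150 genes. Counts of 15 libraries were fitted together by group with edgeR 4.0.16 (R 4.3.3; TMM scaling, filterByExpr, robust quasi-likelihood test), with Benjamini-Hochberg adjustment over 17535 genes and a threshold of 0.05. CPM are TMM-scaled, log2 CPM used a prior count of 2, and correlations used all 5040 permutations. Totals of 13350585 to 20531032 counts set the precision: 3 counts over the HFD group equal 0.040 CPM. Scripts were tested on simulated data. Shares have Wilson intervals at 95%, for counting error only. Alternatives were all 16 libraries, DESeq2 1.42.0, its size factors, no filter, 2-group fits, omission of unmatched columns and omission of single libraries.

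The members and the gene lists were chosen with earlier results of these data known. Named were the members, the 2 genes most like each and the 5 most like their mean, and up to 4 called genes per list and comparison by size of fold change; other names are marked as chosen later. A gene that this rule names is not reported here.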

Additional observations from a re-analysis of the deposited data

Results flagged for a closer look

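Gpr50 in normal diet 2 stood apart from the other normal diet libraries, at 0.760 CPM, with a gap of 0.845 of the group's range, above Dixon's critical value of 0.829 for 4 samples. The summed ciliated epithelium markers of that library were 953 CPM, against 52.4 to 80.8 CPM in the other normal diet libraries, and their part in the value was not tested. Myh15 in metformin 2 stood apart at 12.3 CPM, with a gap of 0.966 of the range. Of the 21 groups of values examined, chance alone would place about 1 in 20 past this limit.

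The lncRNA NONMMUT005206.2, which lies in the span of Trdn and is outside the mRNA table, averaged 2.76 CPM in HFD, while its normal diet libraries had 0 to 0.770 CPM. HFD 1 to 3 had 2.92 to 4.28 CPM and HFD unmatched 0.121 CPM, within the normal diet range.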

How the results depend on the processing

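The members' fold changes moved by less than the spread between replicates in 96 of 97 alternative values for HFD against the normal diet, 96 of 98 for metformin against HFD and 90 of 91 for resveratrol against HFD. Those that moved more were Gpr50 in HFD without normal diet 2 (9.27), Gpr50 in metformin without the unmatched columns (-5.25), Myh15 in metformin without metformin 2 (-5.80) and Slc5a7 in resveratrol without resveratrol 2 (-3.37). In metformin against resveratrol, none of the 90 alternative values passed the test, but Myh15 was 0.73 without metformin 2 and Slc5a7 1.83 without resveratrol 2, both moves larger than the spread. No member's fold change reversed, which the lack of overlap between libraries fixes for HFD against the normal diet. The spread used here was the SD of log2 CPM within groups, from 0.776 for Trdn to 2.02 for Myh15.

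Counts over all genes depended far more on the setting, and the cause was not tested. With all 16 libraries, 1531 genes passed in HFD against the normal diet, 179 in metformin against HFD, 395 in resveratrol against HFD and 0 in metformin against resveratrol. Without the filter, the last 3 comparisons gave 1541, 351 and 0, with DESeq2 4312, 2152 and 29, and with only the 2 groups fitted 1142, 1 and 0. Without the 2 unmatched columns, resveratrol against HFD gave 1855. Leaving out single libraries gave 2722 to 4674 genes in HFD against the normal diet, 469 to 3710 in metformin against HFD, 1 to 2066 in resveratrol against HFD, the highest without HFD unmatched, and 0 to 3 in metformin against resveratrol. The 4 correlated pairs became 3 with all 16 libraries and 0 to 3 in the smaller test with a library left out. They became 0 without metformin 1, metformin unmatched or any of resveratrol 1 to 3. No paired analysis was possible because the labels do not tie animals of different groups together. Members with under 10 counts in a normal diet library limit the precision of their folds.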
